A study of Mus musculus with 2 samples.

Results

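The miR-30 genes encode a family of closely related microRNAs, and 7 of the 2202 microRNA genes counted in this study belong to it: Mir30a, Mir30b, Mir30c-1, Mir30c-2, Mir30d, Mir30e and Mir30f. They were chosen by symbol through the Ensembl identifiers of GENCODE M21, and each was present in both count tables. Small RNA libraries were made from total RNA of the gastrocnemius, the main calf muscle, of 25-day-old female B6CASTF1/J mice. B6CASTF1/J is the F1 cross of the strains C57BL/6J and CAST/EiJ. The study held 1 group of 2 biological replicates, with no treatment, second genotype or second tissue. The labels number the source females differently but give them the same donor identifier, so each SD below describes the spread between 2 libraries, whether or not that is a spread between animals.

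A microRNA is cut from a hairpin precursor, and either arm of the hairpin, named 5p or 3p by its position, can be loaded into an Argonaute protein. The loaded strand finds messenger RNAs mainly through its seed, bases 2 to 8, and lowers their stability and translation. The miR-30 family is known as abundant in striated muscle, heart and kidney, and has been linked to the differentiation of muscle and fat cells. In the mouse the genes lie in pairs on different chromosomes. Members of the family are distinguished mainly by bases downstream of the seed, while the miR-30c 5p strand is made from separate genes.

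The sequences of 5 of the 7 genes were matched in RefSeq (GRCm38.p6), and the mature strands are shown because they set which reads can be told apart. Mir30b and Mir30d are named only. Each strand is written 5′ to 3′ with its seed in capitals.
miR-30a-5p: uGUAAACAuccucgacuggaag
miR-30e-5p: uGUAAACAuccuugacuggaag
miR-30c-5p: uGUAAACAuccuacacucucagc
miR-384-5p: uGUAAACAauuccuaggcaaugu
miR-30f: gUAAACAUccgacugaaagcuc
miR-30a-3p: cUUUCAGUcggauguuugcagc
miR-30e-3p: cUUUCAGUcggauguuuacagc
miR-30c-1-3p: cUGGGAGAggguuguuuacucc
miR-30c-2-3p: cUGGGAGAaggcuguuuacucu

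The seed GUAAACA was found in 4 of 1674 distinct mature strands of the RefSeq table, or 0.239%. Its 5 genes in that table were Mir30a, Mir30e, Mir30c-1, Mir30c-2 and Mir384, the last a gene on the X chromosome outside the named family. Mir30b and Mir30d had no sequence in the table, so their seeds were not read and their absence here says nothing about them. Mir384 had 6 reads in replicate 1 and 3 in replicate 2. Its 5p strand lies on the reverse strand of chromosome X from 105344332 to 105344354. The lower of these counts equals the most that an unread gene is allowed here. The annotated miR-30f strand starts 1 base later within the same letters, so its bases 2 to 8 are UAAACAU, which no other strand of the table had. Counting from 1 at the 5′ end, miR-30a-5p and miR-30e-5p differ by the single substitution C13U, and miR-30a-3p and miR-30e-3p by G18A. The miR-30c-1 and miR-30c-2 3p strands differ by G9A, U12C and C22U. The miR-30c 5p strand is the same in both genes.

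The hairpins of Mir30c-1 and Mir30c-2 are shown because the letters they share, in capitals, cover the whole 5p strand. The capitals in Mir30e mark the bases that are the reverse complement of miR-30f.
Mir30c-1: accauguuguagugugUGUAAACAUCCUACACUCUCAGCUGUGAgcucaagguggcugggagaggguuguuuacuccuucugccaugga
Mir30c-2: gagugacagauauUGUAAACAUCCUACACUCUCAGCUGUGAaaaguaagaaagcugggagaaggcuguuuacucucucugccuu
Mir30e: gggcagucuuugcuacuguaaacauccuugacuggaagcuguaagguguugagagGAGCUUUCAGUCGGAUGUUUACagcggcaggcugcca

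The 2 miR-30c hairpins share an unbroken run of 28 bases. Mir30a and Mir30e share at most 18 bases in a row, and each miR-30c hairpin shares at most 12 with either of them. All 22 bases of miR-30f are complementary to the Mir30e hairpin, and 19 of them lie across from the miR-30e 3p strand. A read of the miR-30c 5p strand therefore has the same letters at both of its genes, and a read from the Mir30e locus is given to Mir30e or Mir30f by its strand.

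In the mm10 assembly Mir30a (ENSMUSG00000065405.3) spans chromosome 1 from 23272269 to 23272339 on the forward strand and overlaps no other annotated gene. Mir30c-2 (ENSMUSG00000065567.1) follows on the same strand, from 23291701 to 23291784, inside an exon of Gm27028, a lincRNA gene. Mir30e (ENSMUSG00000065409.1) lies on the reverse strand of chromosome 4 from 120772606 to 120772697. Mir30c-1 (ENSMUSG00000065490.1) lies downstream of it from 120769534 to 120769622. Each lies within an intron of Nfyc, which encodes a subunit of the CCAAT-binding factor NF-Y and is transcribed from the same strand. Mir30f (ENSMUSG00000105585.1) has exactly the span of Mir30e on the opposite strand. Mir30d (ENSMUSG00000065437.1) lies on the reverse strand of chromosome 15 from 68341208 to 68341289, in an exon of the lincRNA gene Gm20732 and also overlapping an exon of Gm37296. Mir30b (ENSMUSG00000065476.2), from 68337415 to 68337510 on the same strand, overlaps the end of an exon of Gm26621.

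Replicate 1 had 1573213 reads on the gene strand of microRNA genes and replicate 2 had 5429127, or 3.45 times as many. The unit of level is CPM, reads on the gene strand scaled to 1000000 over all gene rows. A read in these libraries is a whole small RNA, so a level is not divided by gene length. Dividing CPM by hairpin length, which runs from 71 to 96 bases, left all 7 genes at the same place in the order. A count of 0 allows up to 3 reads, or 1.91 CPM at the depth of replicate 1 and 0.553 CPM at that of replicate 2. Reads aligned to several places, 68.6% and 69.7% of all reads, were given to no gene. No molecular identifiers were used, and all intervals and limits cover counting error only. The 11 listed microRNA genes of striated muscle all had reads, and held 3.64% of gene-strand reads in replicate 1 and 7.50% in replicate 2. All listed epithelial genes and all listed kidney and liver genes had reads too, so having reads does not identify the tissue. Those lists held 0.0518% and 0.0160% in replicate 1, and 0.0255% and 0.0120% in replicate 2. Most of the striated muscle share was Mir206. Mir206, specific to skeletal muscle, had 34864 and 72482 CPM, while Mir1a-1, whose mature strand is likewise made at several genes, had 14.0 and 15.8 CPM.

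The miR-30 genes together held 3.75% ± 0.197 (SD, n = 2) of the gene-strand reads. Their share was 3.89% in replicate 1 (exact Clopper-Pearson 95% interval 3.86 to 3.92) and 3.61% in replicate 2 (3.59 to 3.62). In bulk tissue, fewer cells of a type and less RNA per cell cannot be told apart. Mir30a, Mir30e and Mir30d supplied 98.4% of the family's reads in both libraries, and Mir30a and Mir30e alone 79.2% ± 0.315. The family's counted reads thus came almost wholly from 1 gene of each genomic pair. By locus, the chromosome 1 pair held 40.8% ± 1.17 of the family's reads, the chromosome 4 pair 39.1% ± 0.795 and the chromosome 15 pair 20.1% ± 0.377.

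**Figure D1:**
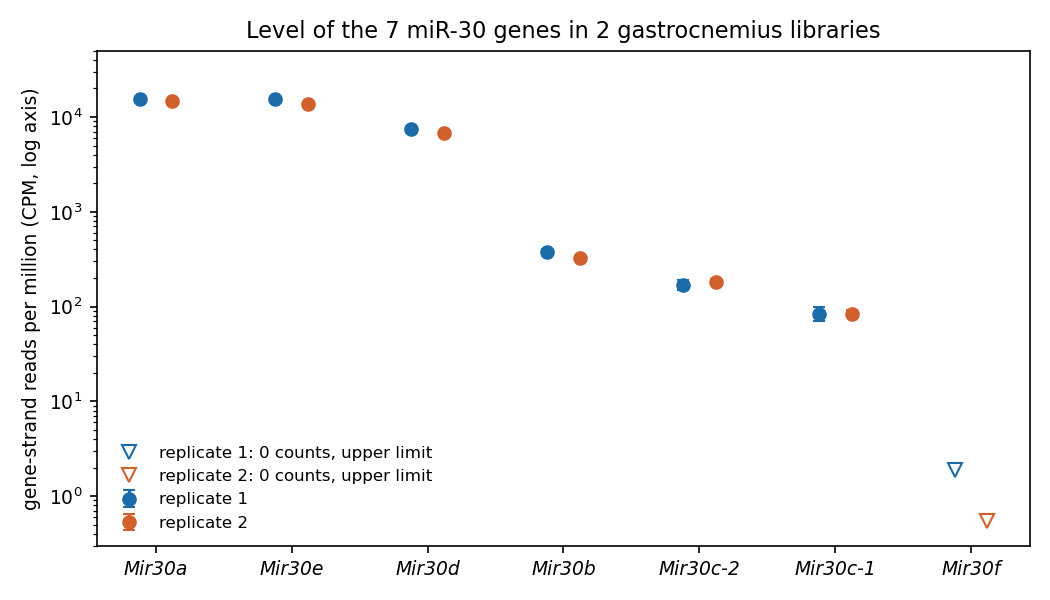
Levels of the 7 miR-30 genes in CPM (log axis); filled points are the 2 libraries with exact 95% counting intervals, mostly smaller than the point, and open triangles are upper limits for a count of 0. Mir30a, Mir30e and Mir30d lie at or above 6818 CPM, Mir30b, Mir30c-2 and Mir30c-1 at or below 376 CPM, and Mir30f had no read.

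Mir30a, the most abundant member, had 24181 reads in replicate 1 and 80569 in replicate 2. This was 15370 and 14840 CPM, a mean of 15105 ± 375 (SD, n = 2). It ranked 17th of all microRNA genes in both libraries. Mir30e, the intron gene of Nfyc whose 5p strand differs from that of Mir30a at 1 base, had 24149 and 75121 reads. Its levels were 15350 and 13837 CPM, a mean of 14593 ± 1070, and it ranked 18th in both libraries. The means of Mir30a and Mir30e differed by less than the SD of Mir30e.

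Within replicate 1 the ratio of Mir30a to Mir30e reads was 1.00, with a log2 interval of -0.02 to 0.03 that included equality. In replicate 2 the ratio was 1.07, with an interval of 0.09 to 0.12 that did not. The 2 genes were thus nearly level, with Mir30a slightly ahead in the deeper library. Mir30d, the leading gene of the chromosome 15 pair, had 11837 and 37014 reads. Its levels were 7524 and 6818 CPM, with a mean of 7171 ± 500 (SD, n = 2). Mir30e exceeded Mir30d 2.04-fold in replicate 1 and 2.03-fold in replicate 2, a log2 ratio of 1.02 ± 0.0053.

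The other members were far lower. Mir30b, the neighbour of Mir30d, had 591 and 1752 reads, or 376 and 323 CPM, with a mean of 349 ± 37.4 (SD, n = 2). Mir30c-2, the neighbour of Mir30a, had 267 and 993 reads, or 170 and 183 CPM, with a mean of 176 ± 9.32. Mir30c-1, the neighbour of Mir30e, had 132 and 458 reads, or 83.9 and 84.4 CPM, with a mean of 84.1 ± 0.322. The order from Mir30a to Mir30c-1 was the same in both libraries, and every step in it except that from Mir30a to Mir30e exceeded the spread between them.

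The neighbours of each gene by level were other well-known microRNAs, found by the distance of log2(CPM + 1) over the 2 libraries, which can show like levels and no more. Mir30a and Mir30e were each other's nearest gene, followed by Mirlet7d and Mir322. Mir27b, at 6779 and 7100 CPM, and Mir139 were nearest to Mir30d. Mir1a-2 and Mir494 were nearest to Mir30b, Mir496a and Mir376b to Mir30c-2, and Mir3102 and Mir148b to Mir30c-1.

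Each genomic pair was read very unequally. Mir30e had 183-fold the reads of Mir30c-1 in replicate 1 and 164-fold in replicate 2, with a mean log2 ratio of 7.43 ± 0.109 (SD, n = 2). The exact intervals of the log2 ratio, 7.27 to 7.77 and 7.23 to 7.49, overlapped. Mir30a had 90.6-fold and 81.1-fold the reads of Mir30c-2, with a mean log2 ratio of 6.42 ± 0.111 and intervals of 6.33 to 6.68 and 6.25 to 6.43, which also overlapped. Mir30d had 20.0-fold and 21.1-fold the reads of Mir30b, with a mean log2 ratio of 4.36 ± 0.055 and overlapping intervals of 4.20 to 4.45 and 4.33 to 4.47. The imbalance of a pair was therefore many times its change between libraries.

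**Figure D2:**
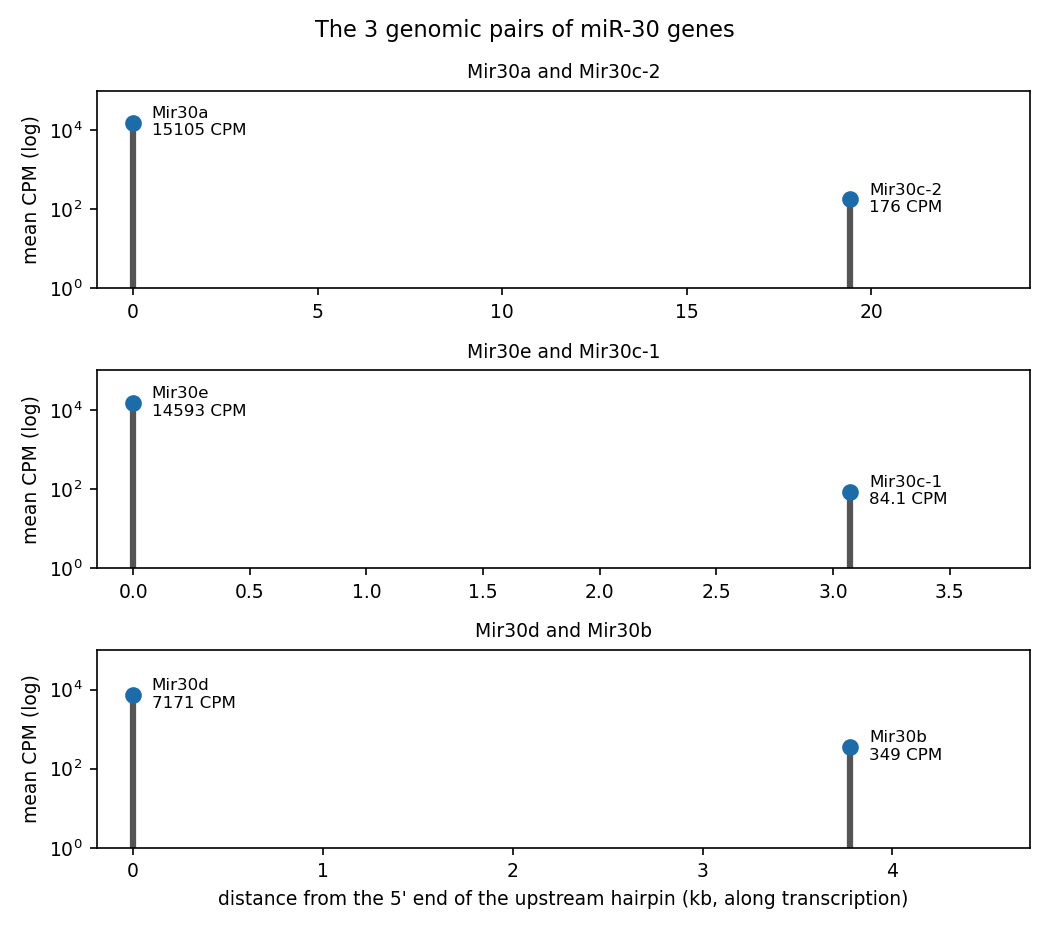
Mean CPM of 2 libraries (log axis) for the 3 pairs of miR-30 genes, against distance in kb along transcription from the 5′ end of the upstream hairpin. In each pair the upstream gene is the higher one, Mir30a above Mir30c-2, Mir30e above Mir30c-1 and Mir30d above Mir30b.

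These pairs were set beside all microRNA genes that follow each other on a strand within 50 kb. There were 445 such pairs, of which 106 had at least 10 summed reads in both genes. Over the 106 pairs the higher gene exceeded the lower by a median log2 ratio of 2.57, with an upper quartile of 4.58. Mir30e over Mir30c-1 was the 4th largest of these ratios, Mir30a over Mir30c-2 the 11th and Mir30d over Mir30b the 32nd. The lower genes of the 4th and 11th were the miR-30c genes, which share their 5p strand. Reads aligned to several places were given to no gene, and their part in these ratios was not tested. The distance between the hairpins was 2983 bases for Mir30e and Mir30c-1, 3697 for Mir30d and Mir30b and 19361 for Mir30a and Mir30c-2, so the widest pair was not the most unequal. The higher gene was the upstream one in 3 of 3 miR-30 pairs and in 62 of the 106, or 58.5%.

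The ratio of a pair also changed little between the libraries. From replicate 1 to replicate 2 the log2 ratio moved by -0.15 for Mir30e over Mir30c-1, by -0.16 for Mir30a over Mir30c-2 and by 0.08 for Mir30d over Mir30b. The median absolute move over the 106 pairs was 0.26, or 0.17 over the 64 pairs with at least 100 reads of each gene in each library. All 3 miR-30 moves were below both medians. Of the 106 pairs, 35 moved less than the largest of the 3. The 106 pairs needed only 10 summed reads of each gene, and counting error adds more to the moves of such pairs. Beside the 64 deeper pairs, the moves of -0.15 and -0.16 were close in size to the median. These values therefore do not show that the miR-30 pairs were unusually steady.

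**Figure D3:**
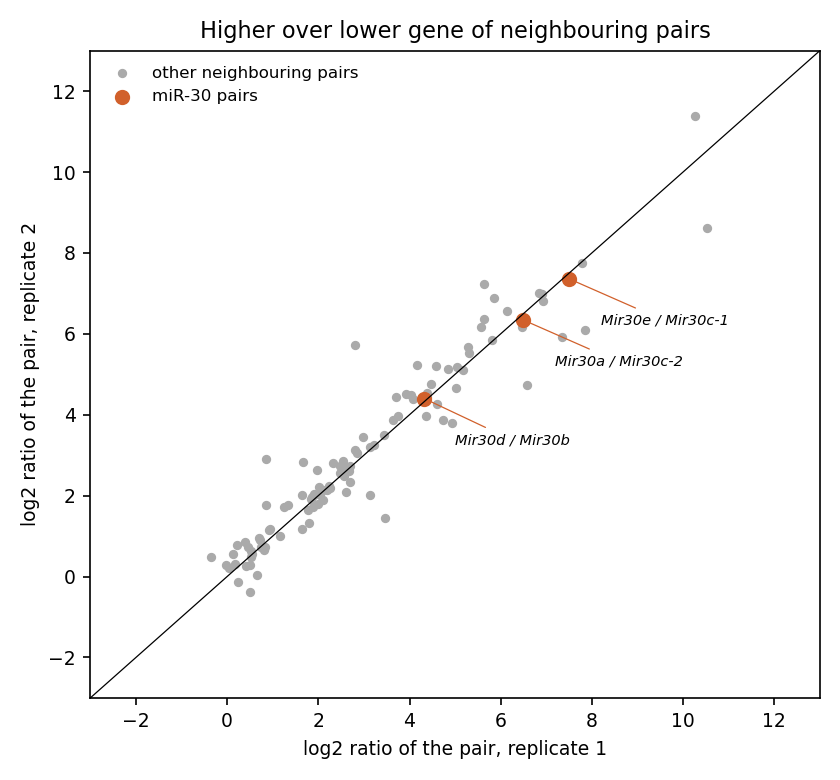
Log2 ratio of the higher over the lower gene in replicate 1 (x axis) and replicate 2 (y axis) for 106 neighbouring microRNA gene pairs, with the 3 miR-30 pairs in orange and the line of equality. The miR-30 pairs lie near the line, at mean log2 ratios of 4.36, 6.42 and 7.43.

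Mir30c-1 and Mir30c-2, which make the same 5p strand on different chromosomes, held 0.0254% and 0.0267% of gene-strand reads together in replicates 1 and 2. That was 0.652% and 0.741% of the family's reads. Mir30c-2 was the higher, 2.02-fold in replicate 1 (log2 interval 0.71 to 1.33) and 2.17-fold in replicate 2 (0.96 to 1.28), so the order of the copies was the same in both libraries. Outside the 28 shared bases their hairpins differ, among other places at 3 of the 22 bases of the 3p strands, whose seeds are the same. The tables count whole hairpins, so the strand that gave these reads was not measured. A read of exactly the whole 5p strand has the same letters in both hairpins. Reads aligned to several places were given to no gene. The levels and ratios of the miR-30c genes thus describe reads assigned to a single gene, and not the amount of miR-30c-5p.

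The miR-30c genes were compared with other genes by how many of their annotated strands are found at a second gene. Of the 2202 counted genes, 1018 were matched to the RefSeq strands, and the classes below hold only part of these. Mir1a-1, for example, is not among the 57 genes with 1 shared strand. Of 581 genes with no shared strand, 57 had at least 1000 CPM, against 3 of 57 genes with 1 shared strand and 0 of 19 with both shared. With strands matched on their first 18 bases, the counts were 54 of 574, 6 of 62 and 0 of 21. The median level, unread genes included, was 0.553 CPM with no shared strand, 12.1 CPM with 1 shared and 0 CPM with both shared. The classes hold different genes, so these values do not measure the effect of multiple alignment on a level. Mir30c-2 ranked 13th and Mir30c-1 17th by mean CPM among the 57 genes with 1 shared strand. They were thus above the middle of their class and below their own single-copy neighbours. Because reads that align to several places were given to no gene, the counts of Mir30c-1 and Mir30c-2 are uncertain, and the part of multiple alignment in them was not tested. By strand letters Mir30a and Mir30e do not belong to this class, with each of their strands found in 1 hairpin.

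Mir30f had no read on its strand in either library. The upper limit for a count of 0 was 1.91 and 0.553 CPM, and with it Mir30e was at least 8050-fold higher than Mir30f in replicate 1 and at least 25040-fold in replicate 2. The opposite-strand column of Mir30f held 24149 and 75121 reads, the same numbers as the gene-strand column of Mir30e, which has the same span. When strand was ignored, both genes were listed at 0. Mir30e supplied 6.77% of the reads tallied as ambiguous without strand in replicate 1 (exact 95% interval 6.69 to 6.86) and 5.70% in replicate 2 (5.66 to 5.74). The level of Mir30e thus rests on the strand-specific count. The other 5 members had 0 reads on their opposite strand.

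Among 32 pairs of microRNA genes that overlap on opposite strands, 26 had at least 10 summed reads in the more abundant gene. In 15 of the 26 the less abundant gene had no read in either library, and in 11 it had at least 1. Mir30e was the 3rd most abundant gene among these pairs, after Mir378a and Mir126a. The other strand had 0 and 1 reads at Mir378a and 1 and 1 at Mir126a. These counts are within the 3 reads that a count of 0 allows, so they do not set those pairs apart from Mir30e and Mir30f. Of the 15 pairs with an unread strand, Mir30e and Mir30f were the pair with the most reads. Mir24-1, for contrast, had 48 and 178 reads beside 10 and 40 for Mir3074-1 on its other strand. This was the largest other-strand share of the 26 pairs, at 17.2% and 18.3%. Mir486, which had more reads, had 1.16% and 1.39% on its other strand. Mir24-1 is also among the genes with 1 strand shared with another gene, so its own count is uncertain.

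**Figure D4:**
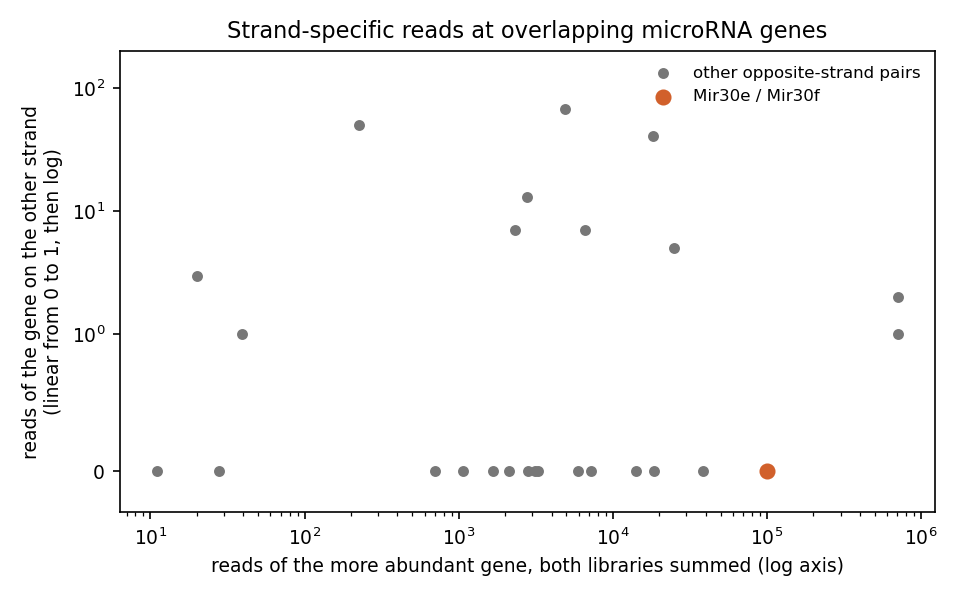
Reads of the more abundant gene (x axis, log scale) against reads of the gene on the other strand (y axis, linear from 0 to 1 and log above), both summed over 2 libraries, for 26 opposite-strand microRNA gene pairs. Mir30e and Mir30f, in orange, lie at 0 on the y axis.

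The libraries were compared gene by gene with a two-sided exact binomial test on reads, the odds being the library totals, and Benjamini-Hochberg adjustment over all 364 genes with at least 10 summed reads. The test takes counting as the only error and compares 2 libraries, not conditions. It called 45.3% of the 364 genes, 30.2% as higher in replicate 1 and 15.1% as higher in replicate 2. Of the 6 miR-30 genes tested, 4 were called, all as higher in replicate 1 with library totals; with 6 genes, nothing particular to the family is read from this count. Mir30f, with no read, was not tested.

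With library totals the sizes of these differences were small. Mir30b was 1.16-fold higher in replicate 1 (log2 ratio of replicate 2 over replicate 1 -0.22, exact 95% interval -0.35 to -0.08, adjusted p = 0.00484 in the exact binomial test). Mir30e was 1.11-fold higher there (-0.15, -0.17 to -0.13), Mir30d 1.10-fold (-0.14, -0.17 to -0.11) and Mir30a 1.04-fold (-0.05, -0.07 to -0.03), and these passed with far more reads, although the sign or the call of all 4 genes changed under another scaling. Mir30c-2 had a log2 ratio of 0.11 with an interval of -0.09 to 0.31 (adjusted p = 0.442, exact binomial test). Mir30c-1 had 0.0039 with an interval of -0.27 to 0.30 (adjusted p = 1, exact binomial test).

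All 6 ratios lay within 0.50, the SD of the log2 ratio of a single gene that follows from edgeR's common biological coefficient of variation of 24.5% over 324 genes, with 1 residual degree of freedom. Of the 364 genes, 240 lay within it. The median absolute log2 ratio was 0.12 over the 6 genes and 0.29 over the 364. The coefficient of variation over the libraries ran from 0.382% for Mir30c-1 to 10.7% for Mir30b, with a median of 6.13%, against 14.6% over the 364 genes. The 364 genes needed only 10 summed reads and were not matched to the 6 by depth. Counting error adds more to the values of genes with few reads, so neither comparison shows that the family was unusually steady.

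The sign of the ratios depended on scaling. The median log2 ratio of all 364 genes was -0.15 with library totals, and the median of the miR-30 genes was -0.10. TMM scaling moved every ratio by 0.08 and DESeq2 size factors by 0.13. With TMM, Mir30e and Mir30d were called higher in replicate 1, Mir30a was called higher in replicate 2 at a log2 ratio of 0.03, and Mir30b was not called (adjusted p = 0.0894, exact binomial test). With DESeq2 size factors none was called higher in replicate 1, and Mir30a, at 0.08, and Mir30c-2, at 0.24, were called higher in replicate 2. Each scaling moved all genes by the same amount, so the place of the miR-30 ratios among the other genes did not change.

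Marker lists of cell types moved more than the family did. The list for striated muscle held 3.64% and 7.50% of reads in replicates 1 and 2, and that for smooth muscle and fibroblasts was 13.3% and 6.34%, with reads for all 5 listed genes. Most of the striated muscle share was Mir206, at 34864 and 72482 CPM. Most of the smooth muscle and fibroblast share was Mir143, at 127590 and 59272 CPM. Other listed genes moved the opposite way, such as Mir208a, at 31.1 and 18.8 CPM, and Mir214, at 1674 and 2355 CPM. The 2 erythroid genes held 0.270% and 0.0587%, the 2 endothelial genes 9.33% and 10.3%, and the 6 immune genes 0.352% and 0.307%. The 11 neural genes held 0.160% and 0.0764%, with Mir9-2, Mir124a-1, Mir124a-2 and Mir124a-3 at 0. The 10 epithelial genes held 0.0518% and 0.0255%, and the 4 kidney and liver genes 0.0160% and 0.0120%. The part of these lists in the miR-30 ratios was not tested.

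**Figure D5:**
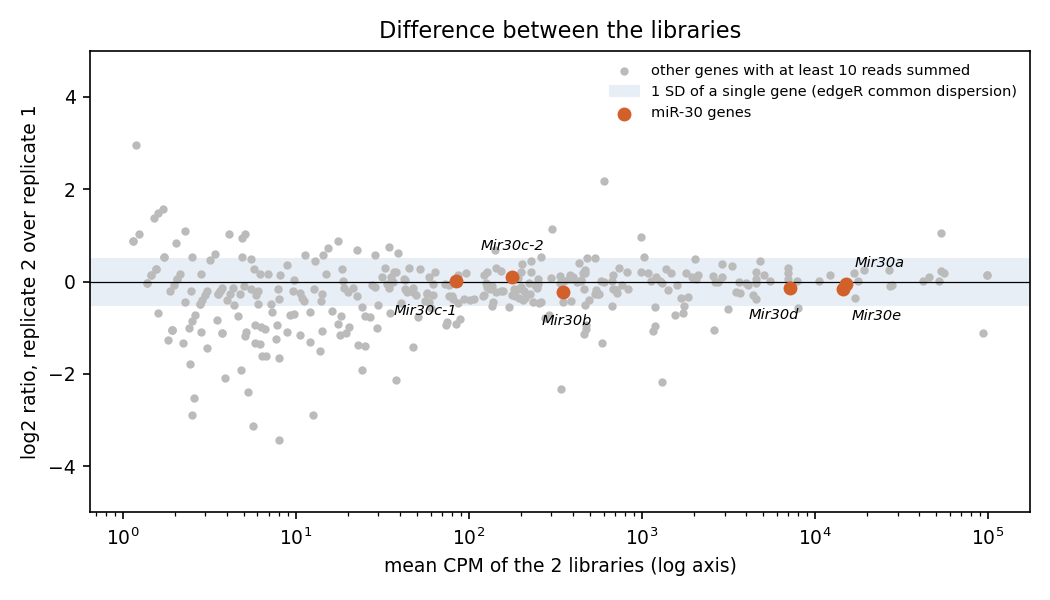
Log2 ratio of replicate 2 over replicate 1 (y axis) against mean CPM (x axis, log scale) for the 364 genes with at least 10 summed reads, with 6 miR-30 genes in orange and a band of 1 SD of a single gene. All 6 lie inside the band of 0.50 on either side of 0.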

How the data were processed

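Small RNA of 2 gastrocnemius libraries was analysed. The authors deposited raw counts per microRNA gene, without a header, in 3 count columns. From the values these are reads on either strand, on the gene strand and on the opposite strand, after 4 tally rows that stayed out of totals. The labels give mm10 as assembly, and the deposited readme files name GENCODE M21. The aligner, the counter and any filter were not given in the sources used here.

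The gene-strand column was used. Clopper-Pearson 95% intervals, pair ratios with an offset of 0.5 counts, and a two-sided exact binomial test per gene with Benjamini-Hochberg adjustment (threshold 0.05) were computed in Python 3.11.15 with scipy 1.17.1, pandas 2.3.3, numpy 2.4.6 and matplotlib 3.10.9. The binomial test was tested on simulated data. TMM factors and the common dispersion came from edgeR 4.0.16 and size factors from DESeq2 1.42.0 (R 4.3.3), over the 324 genes with at least 2 CPM in both libraries. Named were all 7 members, the 2 genes nearest in level to each member with at least 2 CPM, genes with the same seed, host genes and opposite-strand genes; Mir206, Mir1a-1, Mir24-1, Mir3074-1, Mir378a and Mir126a were added after their values were seen. Members and lists were chosen with earlier results of these data known. Alternatives were other denominators, columns, scalings, offsets and filters, and each library left out.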

Additional observations from a re-analysis of the deposited data

How the results depend on the processing

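No paired analysis was possible because the 2 libraries form 1 group. With all aligned reads as the denominator the family held 0.884%, and Mir30a had 3563, Mir30e 3440, Mir30d 1690, Mir30b 82.3, Mir30c-2 41.6 and Mir30c-1 19.9 CPM, all lower because the denominator is larger. In the either-strand column, where the reads of Mir30e and Mir30f are tallied as ambiguous, the family held 2.99%, Mir30e had 0 reads and 0 CPM in both libraries, and Mir30a had 19738, Mir30d 9367, Mir30b 456, Mir30c-2 231 and Mir30c-1 110 CPM. There the log2 ratio of Mir30e over Mir30c-1 was reversed to -8.95. In the opposite-strand column Mir30e had 0 and Mir30f had 24149 and 75121 reads. With DESeq2 size factors 95 genes were called higher in replicate 2. Size factors from all genes with a count in both libraries, chosen after the data were examined, called 65 genes as higher in replicate 1 and 107 as higher in replicate 2. The log2 ratio of Mir30a between the libraries was reversed to 0.0288 with TMM, 0.0817 with DESeq2 and 0.151 with the added size factors, and those of Mir30e and Mir30d to 0.0523 and 0.0598 with the latter. With DESeq2, Mir30e at -0.02 and Mir30d at -0.01 were no longer called, nor was Mir30b with either tool, and Mir30c-2 was called. Of the 104 alternative values, 68 kept their direction and their side of the threshold, moved by no more than the spread between the libraries or, for counts of genes, stayed within 1.5 times the reported count. Leaving out a library gives the other's value, which with 2 libraries lies within the spread by construction. Depth limits the genes with few or no reads, among them Mir30c-1, Mir384 and Mir30f.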
